A study of Homo sapiens with 10 samples.

Results

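The 9 genes described here are CD248, PECAM1, TMEM119, COLEC12, C1QTNF1, MCAM, ENG, THY1 and CSPG4. Other than COLEC12 and C1QTNF1, they are known as markers of stromal cells, endothelium or microglia. All were picked by symbol from 58735 genes counted in CH157-MN, a human cell line. The line was established from a meningioma, a tumour of the membranes around the brain. The list was drawn up with the difference between treated and control cells already known. That difference is therefore given for the 9 genes as a description without a test. RNA was measured in 10 libraries. The 5 PBS libraries came from cells given phosphate-buffered saline, and the 5 ADC libraries came from cells given 100 nM of a humanised antibody-drug conjugate against the somatostatin receptor SSTR2, loaded with the tubulin inhibitor MMAF, with harvest 3 days later. The day is stated for treated cells alone. All libraries come from a single cell line. The target SSTR2 itself was low, with a mean of 0.297 CPM in PBS (SD 0.263, n = 5) and of 0.430 CPM after ADC (SD 0.103, n = 5), where CPM is the count scaled to a common library total. Of other genes used to type meningiomas, VIM was abundant (3398 CPM in PBS) and MUC1, the epithelial membrane antigen, was low (0.352 CPM in PBS).

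These genes encode proteins by which cells of the vessel wall and the stroma recognise each other, the matrix and soluble ligands. CD248 (endosialin), THY1, ENG (endoglin), MCAM and CSPG4 (NG2) are used to mark pericytes, fibroblasts and mesenchymal stromal cells, and ENG and MCAM are also abundant on endothelium. PECAM1 is an adhesion molecule of endothelial cells, platelets and leukocytes, and TMEM119 serves as a marker of microglia and is also expressed by osteoblasts. COLEC12 is a scavenger receptor with a collagen-like stalk, whereas C1QTNF1 encodes a secreted protein of the adiponectin family and not a membrane protein.

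All 9 genes were on the table and passed the filter on low counts. The name under which they were grouped was surface genes gained after treatment. The gain held for 6 of them, of which C1QTNF1 encodes a secreted protein and not a surface protein. In CD248, PECAM1, TMEM119, COLEC12, C1QTNF1 and MCAM every ADC value lay above every PBS value, a pattern seen in 7.29% of the 14504 genes tested, while 14.2% of them had no overlap in either direction. In ENG, THY1 and CSPG4 the groups overlapped. Of all tested genes, 10.8% were called higher at an adjusted p under 0.05, 10% lower and 20.8% in either direction. Scaling by library size alone moved the calls over all genes from 1562 higher and 1456 lower (51.8% higher) to 1835 higher and 1063 lower (63.3% higher). Since the 9 genes were chosen on this contrast, nothing is read from how many of them lay apart.

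Of the 9 genes, 4 had an entry in the RefSeq promoter table (GRCh38.p14), and their 250 bases before the start site are shown because 2 of these genes (COLEC12 and MCAM) were higher after ADC and 2 (ENG and CSPG4) were not. CD248, PECAM1, TMEM119, C1QTNF1 and THY1 were not matched. All 4 genes lie on the minus strand, and the windows are chr18:500702-500951 for COLEC12, chr11:119317131-119317380 for MCAM, chr9:127854659-127854908 for ENG and chr15:75712849-75713098 for CSPG4. The start sites are those of RefSeq, and the MCAM window lies inside the gene as the count table bounds it, with its start site downstream of the 5′ end given there. The COLEC12 and ENG windows overlap in part with their genes as bounded there, and the CSPG4 window does not. Capitals mark the GC box GGGCGG and the cyclic AMP response element TGACGTCA, searched on both strands.
COLEC12: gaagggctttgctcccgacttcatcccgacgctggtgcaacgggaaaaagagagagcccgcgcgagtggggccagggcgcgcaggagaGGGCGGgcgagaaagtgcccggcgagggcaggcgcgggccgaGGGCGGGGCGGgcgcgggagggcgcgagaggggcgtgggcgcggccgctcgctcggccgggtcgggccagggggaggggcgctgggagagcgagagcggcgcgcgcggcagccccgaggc
MCAM: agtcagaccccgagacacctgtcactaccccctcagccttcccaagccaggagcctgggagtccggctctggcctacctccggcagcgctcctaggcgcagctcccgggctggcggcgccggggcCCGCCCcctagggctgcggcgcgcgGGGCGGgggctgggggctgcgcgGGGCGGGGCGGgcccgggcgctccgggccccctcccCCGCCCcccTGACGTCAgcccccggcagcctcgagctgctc
ENG: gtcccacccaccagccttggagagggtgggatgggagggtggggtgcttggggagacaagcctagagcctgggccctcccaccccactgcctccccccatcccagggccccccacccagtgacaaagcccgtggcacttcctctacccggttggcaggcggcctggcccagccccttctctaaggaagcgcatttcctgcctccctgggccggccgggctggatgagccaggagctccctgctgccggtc
CSPG4: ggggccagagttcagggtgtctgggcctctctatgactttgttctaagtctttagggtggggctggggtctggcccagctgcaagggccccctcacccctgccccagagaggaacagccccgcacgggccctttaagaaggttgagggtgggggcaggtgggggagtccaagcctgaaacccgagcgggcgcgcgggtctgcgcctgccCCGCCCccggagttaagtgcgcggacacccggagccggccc

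The GC box matched 3 times in COLEC12, 5 times in MCAM, 1 time in CSPG4 and 0 times in ENG. In COLEC12 and in MCAM, 2 of the matches overlap by 1 base. Of 35116 promoter windows of the same length, 42.6% held at least 1 GC box. The palindrome TGACGTCA was found 1 time, in MCAM, beginning 32 bases before the start site, and 1.6% of all windows held it. The AP-1 element TGANTCA (in 6.6% of all windows), the E-box CACGTG (6.3%), the ETS element CCGGAAG (8.5%) and the TATA box TATAAA (10.7%) had 0 matches in these 4 windows. The windows were rich in G and C, with 78.4% in COLEC12, 79.6% in MCAM, 69.6% in ENG and 68.4% in CSPG4, against a median of 58.0% over all windows. A match describes letters in the window and is not a measured site.

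CPM values were scaled with TMM factors. Log2 fold changes from edgeR are positive where ADC was higher, and come with a standard error (SE). The largest relative difference was that of TMEM119, a single-pass membrane protein. Its counts in PBS replicates 1 to 5 were 7, 5, 16, 2 and 2, and after ADC they were 128, 69, 67, 72 and 34. PBS replicates 4 and 5 lay below a floor of 3 counts and PBS replicate 3 was the highest control, and the lowest ADC library was 2.19 times the highest PBS library in CPM. The mean went from 0.206 ± 0.199 to 2.24 ± 0.94 CPM (SD, n = 5), a ratio of 10.9. The log2 fold change was 3.44 (SE 0.43). PBS replicate 3 held 16 of the PBS counts and the other 4 PBS libraries together also held 16, and without PBS replicate 3 the log2 fold change was 4.15, which is 1.64 times as large on the linear scale.

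PECAM1, which binds itself between neighbouring cells at endothelial junctions, was also low in control cells, with 15 to 25 counts per library. It was at 0.446, 0.741, 0.511, 0.566 and 0.618 CPM in the PBS libraries and, after treatment, at 2.52, 1.78, 1.64, 2.06 and 1.93 CPM in the ADC libraries. The ADC libraries stood apart as a group, with the lowest of them at 2.21 times the highest PBS library. The ratio of the means was 3.44 and the log2 fold change 1.77 (SE 0.28).

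CD248, a membrane protein with a C-type lectin-like domain that is known from tumour vessels and fibroblasts, had the highest level per length after ADC of the 5 genes with the largest differences. Its CPM values were 6.75, 6.34, 4.63, 3.43 and 5.15 in PBS and 16.4, 14.0, 14.4, 17.2 and 16.9 in ADC libraries. The spread was wider among PBS libraries (coefficient of variation 25.4%) than among ADC libraries (9.48%), a difference that was not tested. The means differed 3.0-fold, with a log2 fold change of 1.58 (SE 0.13).

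COLEC12 takes up modified lipoproteins and binds sugars on microbes. Its CPM values were 3.36, 2.25, 2.73, 3.50 and 2.97 in PBS and 10.8, 7.68, 7.28, 8.59 and 9.78 in ADC libraries. The groups were separated by a factor of 2.08 between the nearest libraries. The log2 fold change was 1.58 (SE 0.14).

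C1QTNF1, the secreted member of the set, was at 1.67, 1.66, 0.784, 1.31 and 1.15 CPM in control libraries and at 6.91, 3.69, 3.77, 4.98 and 6.27 CPM in ADC libraries. The coefficient of variation was 28.3% in either group, wider than that of COLEC12 (16.9% and 16.7%). The means differed 3.90-fold and the log2 fold change was 1.95 (SE 0.21). ADC replicate 1 was the highest ADC library for TMEM119, PECAM1, COLEC12 and C1QTNF1. Without it, none of the 6 genes moved by more than the spread between libraries of a group.

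MCAM, an adhesion molecule of endothelium, pericytes and melanoma, differed far less. It was at 20.3, 18.1, 19.7, 20 and 21 CPM in control libraries and at 26.9, 27.2, 22.6, 23.2 and 25.8 CPM in ADC libraries. The nearest libraries of the groups, at 21 and 22.6 CPM, were separated by a factor of 1.07. The ratio of the means was 1.27 and the log2 fold change 0.34 (SE 0.07).

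**Figure D1:**
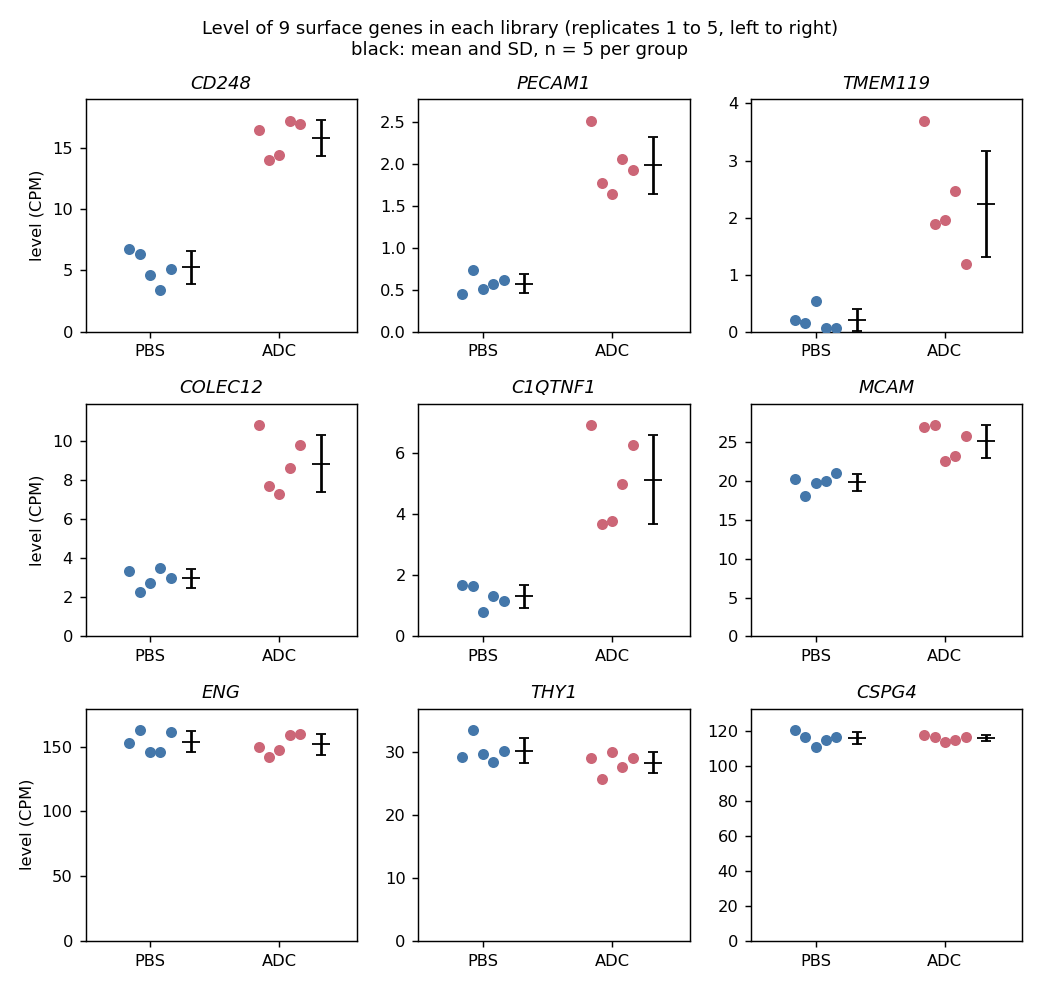
Level of each gene in every library, in TMM-scaled CPM on an axis that starts at 0, with PBS replicates 1 to 5 in blue, ADC replicates 1 to 5 in red, and the mean and SD in black (n = 5 per group). All ADC points lie above all PBS points for CD248, PECAM1, TMEM119, COLEC12, C1QTNF1 and MCAM, and the groups overlap for ENG, THY1 and CSPG4.

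The remaining 3 genes had overlapping levels in the groups. ENG, a co-receptor for TGF-beta and BMP ligands, was at 153, 163, 146, 146 and 161 CPM in control libraries and at 150, 142, 147, 159 and 160 CPM in ADC libraries. Its log2 fold change was -0.02 (SE 0.04), with a 95% interval of -0.10 to 0.06. THY1, a small glycoprotein held in the membrane by a lipid anchor, was at 29.2, 33.6, 29.8, 28.4 and 30.2 CPM in control libraries and at 29.1, 25.8, 30.1, 27.6 and 29.1 CPM in ADC libraries. Its interval ran from -0.22 to 0.03 around -0.09 (SE 0.06). CSPG4, a chondroitin sulfate proteoglycan of pericytes and glial progenitors, was at 121, 117, 111, 115 and 117 CPM in control libraries and at 118, 117, 114, 115 and 117 CPM in ADC libraries, with an interval of -0.08 to 0.07.

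Divided by gene length, the levels of the 9 genes in control cells differed widely. In PBS libraries the order by CPM per kilobase was ENG (39.1 ± 2.0), CSPG4 (14.0 ± 0.5), THY1 (5.10 ± 0.33), MCAM (2.67 ± 0.14), CD248 (2.06 ± 0.52), COLEC12 (0.404 ± 0.068), C1QTNF1 (0.270 ± 0.076), PECAM1 (0.0743 ± 0.0144) and TMEM119 (0.0647 ± 0.0624). The libraries of MCAM and CD248, of COLEC12 and C1QTNF1, and of PECAM1 and TMEM119 overlapped, so that these neighbours in the order were not separated. The 3 genes with overlapping groups were the 3 highest in control cells, and the 5 genes with the largest log2 fold changes were the 5 lowest. The genes were chosen on this contrast and the PBS level is part of the fold change, so nothing is read from this relation. By level per length in PBS, ENG stood at percentile 91.6 of all tested genes, CD248 at percentile 37.7 and TMEM119 at percentile 1.7.

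After ADC the order changed in 2 places. CD248 (6.17 ± 0.58 CPM per kilobase) passed MCAM (3.39 ± 0.29) and THY1 (4.78 ± 0.28), and every CD248 value lay above every THY1 value, at 5.46 or more against 5.08 or less. TMEM119 (0.703 ± 0.293) passed PECAM1 (0.256 ± 0.044), again without overlap. COLEC12 (1.2 ± 0.2) overlapped with C1QTNF1 (1.06 ± 0.30), and C1QTNF1 with TMEM119. Among the 6 higher genes, the level per length in ADC libraries ran from percentile 9.9 of all tested genes for PECAM1, through 21.2 for TMEM119 and 46.3 for MCAM, to 58.7 for CD248.

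**Figure D2:**
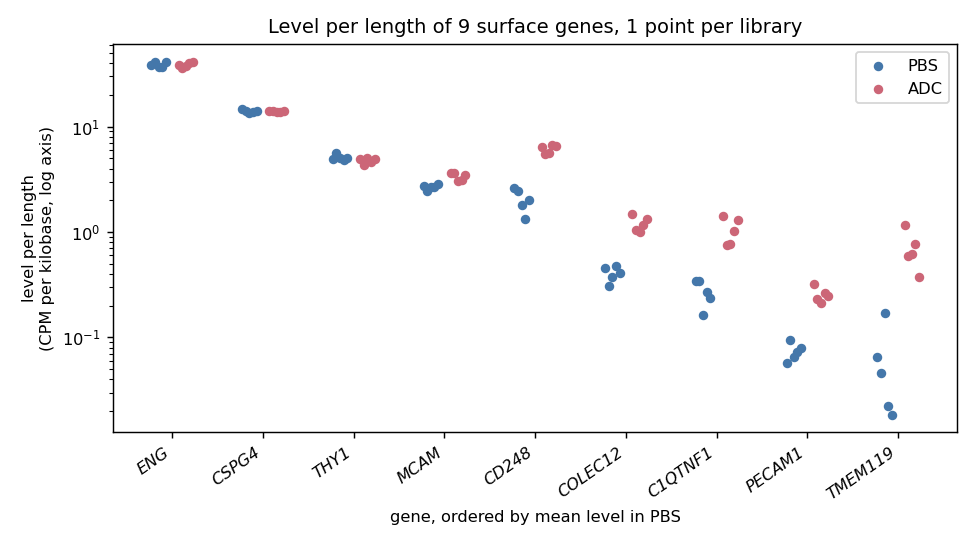
Level per length of each gene (CPM per kilobase, log axis), 1 point per library, with genes ordered by their mean in PBS, PBS in blue and ADC in red. ENG, CSPG4 and THY1 are highest in PBS and overlap between groups, while CD248 lies above THY1 in ADC libraries only.

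With the group means removed, the 9 genes were compared in pairs across the 10 libraries. Pearson's r of log2 CPM over 36 pairs of genes ranged from -0.55 (MCAM with THY1) to 0.71 (C1QTNF1 with CSPG4), with a median of 0.13, and 13 pairs were below 0. Among the 15 pairs of the 6 higher genes the median was 0.04, and the largest value was that of COLEC12 with MCAM (0.59). All values come from the same 10 libraries and share their depth. TMEM119 and PECAM1 had 2 to 25 counts per PBS library, where counting error can lower r. Low values in their pairs therefore do not show that these genes vary apart. The protein-coding genes most like each of the 6 genes with at least 5 CPM, out of 9630 compared, were FDPS (0.96) and TMEM173 (0.94) for CD248, RBBP6 and KIAA1958 (each 0.91) for COLEC12, NAPEPLD (0.95) and L3MBTL3 (0.92) for MCAM, TADA3 and PRR13 (each 0.96) for ENG, MPV17 (0.94) and ACOT7 (0.92) for THY1, and CEP85 (0.95) and CEP295 (0.94) for CSPG4. With 10 libraries and 9630 genes such values describe these libraries and carry no test.

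On hg38 the genes lie on 6 chromosomes, as the deposited table gives them. CD248 (ENSG00000174807) is a single-exon gene at chr11:66314487-66317044, and MCAM (ENSG00000076706, chr11:119308529-119321521) and THY1 (ENSG00000154096, chr11:119417378-119424985) lie 95856 bases apart with 2 tested protein-coding genes between them. PECAM1 (ENSG00000261371) is at chr17:64319415-64413776, C1QTNF1 (ENSG00000173918) at chr17:79022814-79049788, TMEM119 (ENSG00000183160) at chr12:108589846-108598320, COLEC12 (ENSG00000158270) at chr18:316740-500722, ENG (ENSG00000106991) at chr9:127815012-127854756 and CSPG4 (ENSG00000173546) at chr15:75674322-75712848. Counts cover whole genes, so no exon is singled out. In GENCODE 29, CD248, PECAM1, TMEM119 and C1QTNF1 share no exonic base with another gene. Of the exonic bases of MCAM, 6.9% lie opposite CBL, which had 2730 to 4150 counts per library, more than MCAM itself (567 to 994). Of the exonic bases of ENG 8.0% lie opposite AL162586.1, which had 11 to 66 counts per library. The strand setting of the counts is not given, so reads in these stretches cannot be told apart. CSPG4 has 9 pseudogene rows on the table, which together held 709 counts against 37456 for CSPG4. How reads shared between CSPG4 and these copies were counted is not given, and their part in its value was not tested.

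Genes next to the 9 on the chromosome were read in the same fit. For each gene the nearest tested protein-coding gene on each side that does not overlap it was taken, so that CBL, which overlaps MCAM, was left out (log2 fold change 0.05, SE 0.05, adjusted p = 0.57). This was a rule added after the values of the 9 were seen. Of the 12 neighbours of the 6 higher genes, 1 rose, 3 fell and 8 were not called. Over all tested genes 10.8% were called higher and 10% lower, and with so few neighbours nothing is read from their number. The gene that rose was SELPLG, the selectin ligand of leukocytes, which lies 23956 bases from TMEM119 and went from 0.238 to 0.609 CPM (log2 fold change 1.35, SE 0.45, adjusted p = 0.032). That call was lost without PBS replicate 2 or 5 or ADC replicate 1, 3 or 5, at adjusted p of 0.064 to 0.092, and with no filter on low counts (adjusted p = 0.093). Both neighbours of PECAM1 fell, TEX2 by 0.18 (adjusted p = 0.021) and POLG2 by 0.26 (adjusted p = 0.035), as did TYMS beside COLEC12, by 0.22 (adjusted p = 0.0091). The call of TEX2 was lost without PBS replicate 1 or ADC replicate 4 or 5 (adjusted p of 0.064 to 0.090) and by library size alone (0.054). The call of POLG2 was lost without PBS replicate 3, 4 or 5 or ADC replicate 1, 2 or 4 (adjusted p of 0.054 to 0.11), by library size alone (0.057) and with no filter (0.063). The genes beside CD248 (YIF1A and RIN1), C1QTNF1 (CANT1 and ENGASE) and MCAM (NLRX1 and RNF26), ISCU beside TMEM119 and THOC1 beside COLEC12 were not called, but RIN1 was called lower without ADC replicate 5 (adjusted p = 0.041). Of the 6 neighbours of ENG, THY1 and CSPG4, 0 were called by edgeR, and SNX33 beside CSPG4, at adjusted p = 0.052, passed with DESeq2 (0.024), limma-voom (0.043), library size alone (0.029), a mean of at least 1 CPM (0.039), halved counts (0.045) and without PBS replicate 3 (0.040).

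**Figure D3:**
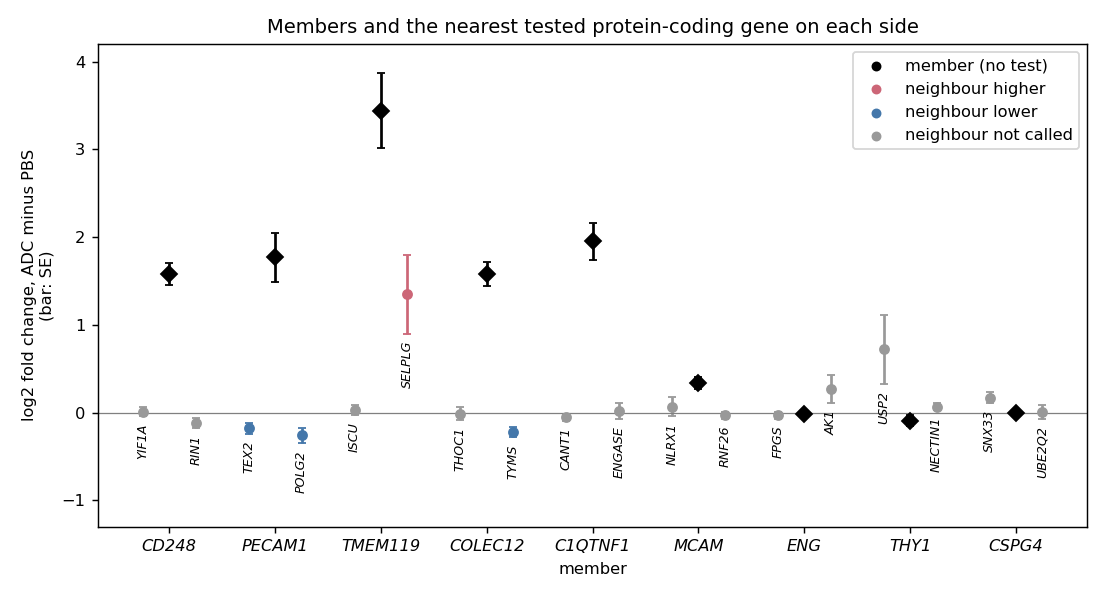
Log2 fold change (ADC minus PBS) with its SE for each of the 9 genes (black diamonds) and for the nearest tested protein-coding gene on each side that does not overlap it (circles, red where higher, blue where lower, grey where not called). SELPLG beside TMEM119 is the one neighbour called higher.

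Other markers of endothelium were then read beside PECAM1. Of 25 such genes 8 passed the filter on low counts, 0 were called in either direction, and their median log2 fold change was 0.00, the same as over all tested genes (-0.00). Summed over the list, the level was 28.3 to 32.8 CPM in PBS and 30.5 to 33.0 CPM after ADC. The 17 genes below the filter summed to 0.443 to 0.765 CPM in PBS and 0.596 to 1.47 CPM after ADC, and were not tested. Among the defining markers, the VEGF receptor KDR was at 1.51 ± 0.60 and 1.49 ± 0.27 CPM and VWF at 0.301 ± 0.280 and 0.396 ± 0.268 CPM (adjusted p = 0.97 and 0.70). The junction cadherin CDH5 had 0 counts in each of the PBS libraries and 2 to 7 in the ADC libraries, 19 in all, and was not tested. TEK had 0 to 2 counts and CLDN5 0 to 4 counts per library. The endothelial receptors TIE1 (8.27 ± 0.59 and 9.43 ± 0.60 CPM) and ROBO4 (8.49 ± 1.21 and 8.67 ± 1.15 CPM), named after their values were seen, made up much of the summed level and were not called (adjusted p = 0.18 and 0.90). In bulk RNA, a change in the number of cells that express a gene and a change in its RNA per cell cannot be told apart.

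Markers of microglia and other leukocytes were read beside TMEM119. Of 22 such genes 4 passed the filter, 0 rose and 1 fell (25% called, beside 20.8% over all tested genes). The pan-leukocyte gene PTPRC had 2 counts summed over the 10 libraries, and the microglial receptors P2RY12 and CX3CR1 had 0 counts in every library. In all, 10 of the 22 genes had 0 counts throughout. The 18 genes below the filter summed to 0.0595 to 0.618 CPM in PBS and 0.386 to 0.868 CPM after ADC. The median log2 fold change of the 4 tested genes was 0.31. CSF1R, at 1.26 ± 0.68 and 2.10 ± 0.34 CPM, was not called (adjusted p = 0.081) but passed without PBS replicate 2 (0.013), with limma-voom (0.044) and with the replicate number as a block (0.031).

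**Figure D4:**
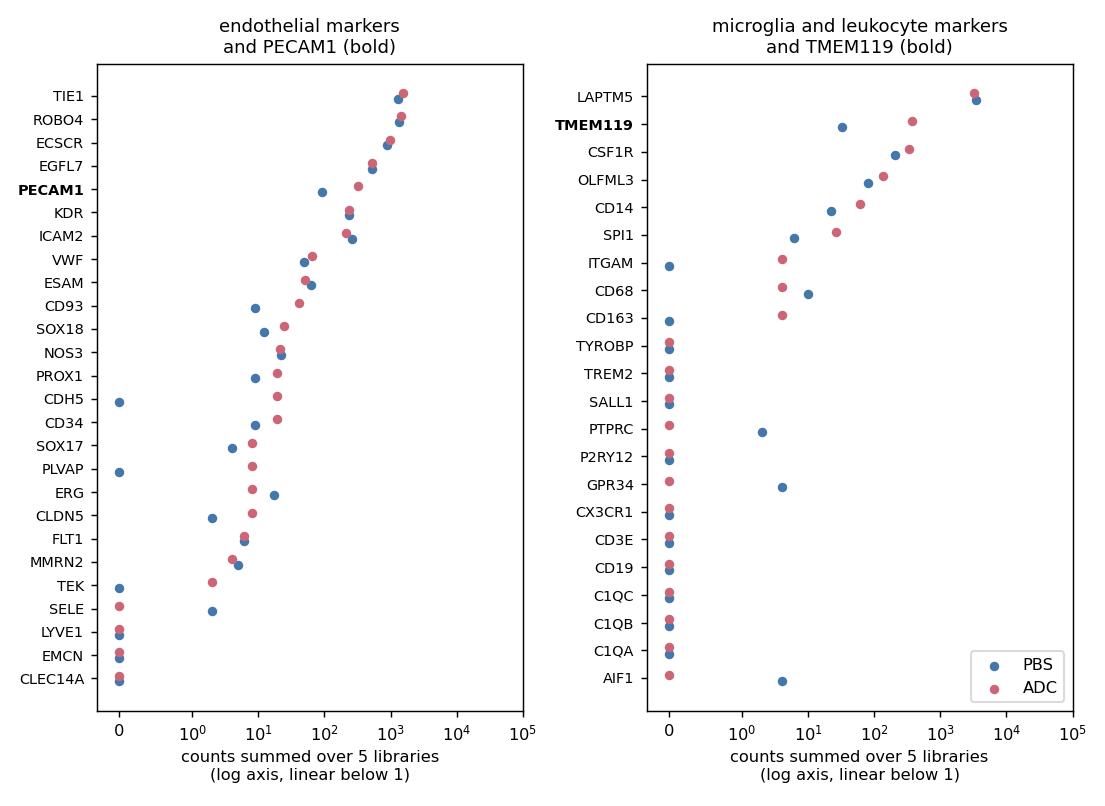
Counts summed over the 5 libraries of each group for the endothelial list with PECAM1 and for 21 of the 22 microglia and leukocyte genes with TMEM119 (axis logarithmic above 1 and linear below), PBS in blue and ADC in red. PECAM1 went from 92 to 323 counts and TMEM119 from 32 to 370, while PTPRC, P2RY12 and CX3CR1 lie at 2 counts or fewer.

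Fibroblast and mural markers were measured beside CD248, THY1 and CSPG4. The fibroblast list had 12 tested genes, of which 8 rose and 0 fell. That is 66.7% called, beside 20.8% over all tested genes, with a median log2 fold change of 0.42. This list and the others were drawn up with earlier results of these data known. Their shares are therefore a description, and no enrichment was tested. The collagen chain COL1A2 rose from 28.5 ± 2.5 to 71.4 ± 10.4 CPM, a log2 fold change of 1.33 (SE 0.07, adjusted p = 1.5e-14). S100A4 rose from 1.15 ± 0.38 to 4.04 ± 0.54 CPM, a log2 fold change of 1.81 (SE 0.22, adjusted p = 2.3e-07), and COL1A1 by 0.30 (SE 0.05, adjusted p = 3.6e-05). The other 9 of the 21 genes did not pass the filter, and 5 had 0 counts in every library.

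Of 11 tested rows of mural cell markers, genes of pericytes and smooth muscle, 4 rose and 0 fell (36.4% called), with a median of 0.13. PDGFRB, the receptor by which pericytes are recruited, rose from 3.81 ± 0.58 to 8.32 ± 1.91 CPM, a log2 fold change of 1.12 (SE 0.14, adjusted p = 8.7e-07). ANPEP rose by 0.26 (SE 0.03, adjusted p = 4.0e-07) and the actin-binding CALD1 by 0.13 (SE 0.04, adjusted p = 0.012). RGS5 is on the table under 2 identifiers. One (ENSG00000143248) rose by 1.0 (SE 0.33, adjusted p = 0.029), a call lost without PBS replicate 1 or 5 or ADC replicate 1, 3 or 4 (adjusted p of 0.052 to 0.076), and the other (ENSG00000232995) was not called (-0.31, SE 0.25, adjusted p = 0.41).

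Surface markers by which cultured mesenchymal stromal cells are sorted together with ENG and THY1 formed a further list. Of 13 tested, 7 rose, 1 fell and 5 were not called (61.5% called), with a median of 0.19. The nucleotidase NT5E rose from 333 ± 6 to 419 ± 16 CPM, a log2 fold change of 0.33 (SE 0.03, adjusted p = 2.6e-09), beside ANPEP and PDGFRB, which this list shares with the mural list. ALCAM, an adhesion molecule, fell from 525 ± 16 to 459 ± 16 CPM, a log2 fold change of -0.19 (SE 0.03, adjusted p = 3.8e-05).

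**Figure D5:**
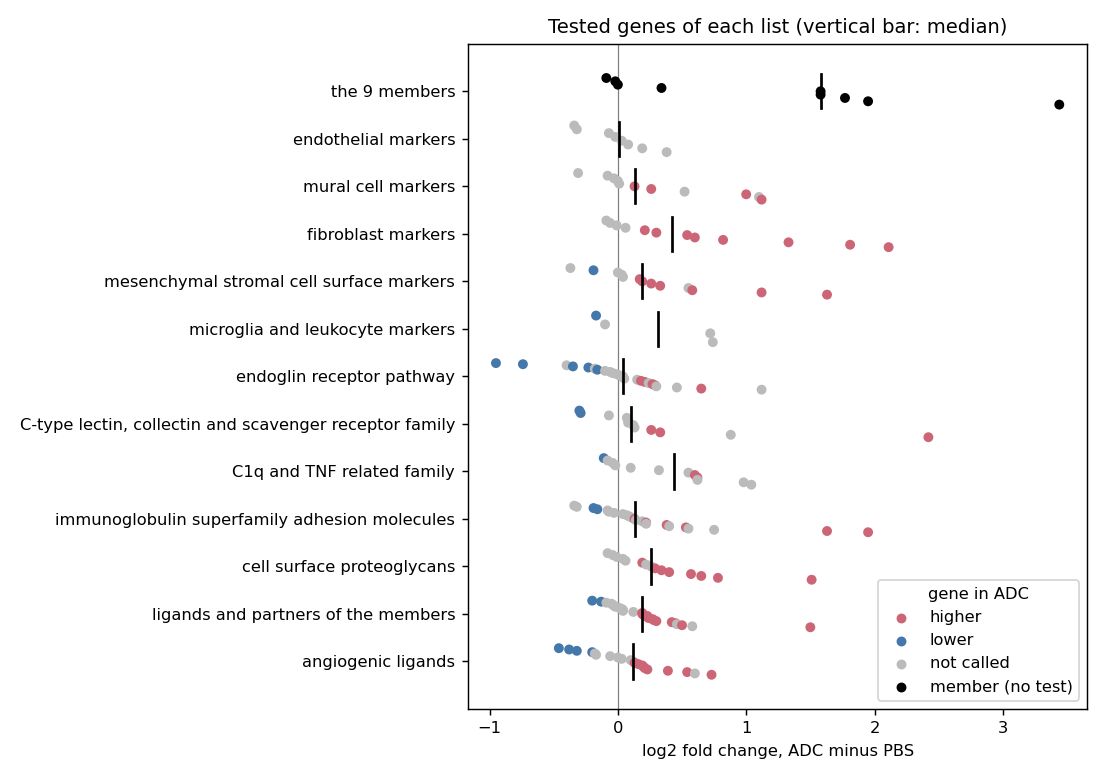
Log2 fold change (ADC minus PBS) of every tested gene in the 12 lists and of the 9 genes themselves (black, without a test), red where called higher, blue where called lower and grey where not called, with the median as a vertical bar. The 9 genes have a median of 1.58, fibroblast markers 0.42 and endothelial markers 0.00.

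The receptors, ligands and targets around endoglin moved in both directions. Endoglin presents ligands to type I and type II receptors, which signal through SMAD proteins to targets such as the ID genes. Of 25 tested genes of this group 5 rose, 5 fell and 15 were not called (40% called, beside 20.8% over all tested genes), with a median of 0.04. The rising genes were the co-receptor TGFBR3 (0.65, SE 0.08, adjusted p = 3.5e-07), SMAD3 (0.29), BMPR2 (0.21), TGFBR1 (0.18) and the membrane protease MMP14, which sheds endoglin (0.27, SE 0.03, adjusted p = 3.0e-07). The falling genes included ID3 (-0.95, SE 0.05, adjusted p = 1.5e-14), ID1 (-0.74), SMAD7 (-0.23) and SMAD5 (-0.16). The call of TGFBR1 was lost without PBS replicate 1 (adjusted p = 0.052) or ADC replicate 1 (adjusted p = 0.091). The endothelial ligands GDF2 and BMP10 had 0 counts in every library.

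Ligands and binding partners of the 9 proteins were read as 1 list. Of 27 tested, 13 rose, 2 fell and 12 were not called (55.6% called), with a median of 0.19. PLAT, the tissue plasminogen activator, which binds CSPG4, rose from 19.5 ± 1.9 to 55.2 ± 5.0 CPM, a log2 fold change of 1.5 (SE 0.07, adjusted p = 1.7e-16). The type VI collagen chains COL6A2 and COL6A1, also CSPG4 ligands, rose by 0.45 (SE 0.04, adjusted p = 1.9e-10) and 0.42 (SE 0.04, adjusted p = 4.7e-10). FGF2 fell by 0.20 (adjusted p = 0.011), a call lost without ADC replicate 2 (adjusted p = 0.051). The phosphatase PTPN11, which docks on the cytoplasmic tail of PECAM1, fell by 0.13 (SE 0.03, adjusted p = 0.0049).

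Relatives of COLEC12 and CD248 among C-type lectins, collectins and scavenger receptors were few in these cells. Of 27 listed, 12 were tested, 3 rose and 2 fell (41.7% called), with a median of 0.10. PLA2R1, a receptor with C-type lectin-like domains that binds secreted phospholipases, rose from 0.676 ± 0.184 to 3.62 ± 0.87 CPM, a log2 fold change of 2.42 (SE 0.25, adjusted p = 1.7e-08). Its relative MRC2 rose by 0.33 (SE 0.04, adjusted p = 6.8e-07) and the collectin COLEC10 by 0.26 (SE 0.05, adjusted p = 0.00029). The scavenger receptors SCARB1 (-0.29, SE 0.04, adjusted p = 2.7e-07) and SCARF2 (-0.30, SE 0.06, adjusted p = 0.00028) fell.

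Around C1QTNF1, 12 of 27 genes with a C1q domain or a receptor role were tested. Of these 2 rose and 1 fell (25% called, near the 20.8% over all tested genes), with a median of 0.44. That median falls between genes that had low counts and were not called. CDH13, a cadherin that binds adiponectin, rose from 40.5 ± 1.4 to 62.5 ± 3.3 CPM, a log2 fold change of 0.62 (SE 0.05, adjusted p = 4.8e-11), and EMILIN1 rose by 0.60 (SE 0.06, adjusted p = 1.6e-08). ADIPOR1 fell by 0.11 (SE 0.04, adjusted p = 0.033), a call lost by library size alone (adjusted p = 0.10) and without PBS replicate 1, 3 or 4 or ADC replicate 1, 3 or 5 (adjusted p of 0.052 to 0.12).

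Adhesion molecules of the immunoglobulin superfamily, to which PECAM1, MCAM and THY1 belong, were called in 34.8% of 23 tested genes. Of these 6 rose, 2 fell and 15 were not called, with a median of 0.13. L1CAM, a neural adhesion molecule, rose from 1.08 ± 0.54 to 4.18 ± 0.56 CPM, a log2 fold change of 1.95 (SE 0.25, adjusted p = 1.0e-06). ICAM1 rose by 0.53 (SE 0.05, adjusted p = 5.5e-09) and MXRA8 by 0.38 (SE 0.06, adjusted p = 9.0e-06). Beside ALCAM, PVR fell by 0.16 (SE 0.04, adjusted p = 0.0073).

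Cell surface and matrix proteoglycans other than CSPG4 rose in 8 of 15 tested genes and fell in 0 (53.3% called), with a median of 0.26. Agrin (AGRN) rose from 164 ± 2 to 243 ± 17 CPM, a log2 fold change of 0.57 (SE 0.04, adjusted p = 2.1e-12). The syndecan SDC3 rose by 0.34 (SE 0.04, adjusted p = 2.3e-07), and TGFBR3 is also of this group.

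Secreted factors that act on vessels changed in both directions. Of 21 tested, 9 rose, 4 fell and 8 were not called (61.9% called), with a median of 0.12. VEGFA rose from 106 ± 3 to 139 ± 12 CPM, a log2 fold change of 0.39 (SE 0.04, adjusted p = 8.2e-08), CTGF by 0.20 (SE 0.03, adjusted p = 4.5e-05) and ANGPTL4 by 0.73 (SE 0.14, adjusted p = 0.00021). The angiogenesis inhibitor THBS1 fell by 0.38 (SE 0.03, adjusted p = 5.2e-11), and ANGPT1 (-0.46, SE 0.10, adjusted p = 0.00080) and JAG1 (-0.32, SE 0.08, adjusted p = 0.0057) fell with it, beside FGF2.

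Total counts were 28262162 to 36463724 per library and mitochondrial genes took 1.19% to 2.63% of them, with overlapping ranges in the groups. In a single library, 3 counts correspond to 0.0820 to 0.106 CPM, which is the upper limit that a count of 0 allows if every count is a separate fragment. Such limits cover counting error only. The labels do not say whether the replicates were separate cultures, so the p-values measure the spread between these libraries, which may be technical.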

How the data were processed

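RNA of CH157-MN cells was selected on poly-T beads and reverse transcribed from random hexamers, per the labels' protocols. The authors deposited whole-number counts per gene with gene positions and lengths. The build was hg38, per the submitters' processing notes, which also list TopHat2, HISAT and HISAT2 but not what each was used for. The counting tool and strand setting were not given in the sources used here. Counts of 2 to 21 were even in 65.4% to 67.3% of cases, against 49.0% to 50.6% of counts of 1000 or more, so both mates of a pair may have been counted, and halved counts were tried.

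Counts were scaled with TMM and filtered with filterByExpr (minimum count 10, minimum total 15), which left 14504 genes. ADC was compared with PBS with the two-sided quasi-likelihood test of edgeR 4.0.16 under R 4.3.3. P-values were adjusted over all tested genes (Benjamini-Hochberg, threshold 0.05), and an adjusted p comes from edgeR where no tool is given beside it. SE was taken as |log2 fold change| over the root of the F statistic. Level per length is CPM divided by the deposited gene length in kilobases. Within-group likeness used log2 CPM (prior count 2). Alternatives were DESeq2 1.42.0, limma-voom (limma 3.58.1), library size alone, other filters, the replicate number as a block, halved counts and each library left out.

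The genes and the 12 lists were chosen with earlier results of these data known. From each list, the text names the 3 called genes with the smallest adjusted p per direction, or all where 5 or fewer were called, and 8 defining markers. Overlaps between genes came from GENCODE 29, which held all 58735 identifiers, 58724 with the same start and end. In 3 simulations of the 14504 genes in the comparison of ADC with PBS, edgeR found 44.0% of the genes made to differ 1.2-fold, 84.7% at 1.5-fold and 94.7% at 2-fold. False calls made up 5.5% of its calls and 9.1% of those of DESeq2. Every simulated gene had the same biological coefficient of variation, 7.6%, and fewer genes differed than were called in the data. The shares therefore do not cover genes that vary more, such as TMEM119. No library repeated another: chi-square divided by its degrees of freedom was 5.18 to 16.5 over the 20 pairs within groups. Some items on the lists are counted but not reported here by name.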

Additional observations from a re-analysis of the deposited data

Results flagged for a closer look

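In 7 of 168 groups of 5 libraries, over the 84 genes named, 1 library lay far from the other 4, where chance gives about 1 in 20. None of the 9 genes was among them. PBS replicate 1 was low for PLA2R1, at 0.357 CPM against 0.681 to 0.795 in the other PBS libraries. PBS replicate 4 was low for SMAD7 (35.5 CPM against 43.5 to 44.8) and high for CALD1 (133 CPM against 118 to 121). PBS replicate 2 was low for L3MBTL3, at 7.02 CPM against 8.95 to 9.57. ADC replicate 1 was high for EMILIN1 (55.3 CPM against 45.6 to 47.8) and for MMP14 (444 CPM against 410 to 418). ADC replicate 5 was low for ALCAM, at 431 CPM against 462 to 471.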

How the results depend on the processing

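Over 17 other settings the log2 fold change of each of the 9 genes moved by less than the SD between libraries of a group. It ranged from 1.46 to 1.68 for CD248, 1.67 to 1.88 for PECAM1, 3.18 to 4.15 for TMEM119, 1.49 to 1.64 for COLEC12, 1.82 to 2.05 for C1QTNF1 and 0.31 to 0.38 for MCAM. Of the counts of list genes, the microglia and leukocyte genes called higher went from 0 to 1 with limma-voom and with the replicate block, and the C1q family genes called lower went from 1 to 2 with DESeq2, limma-voom and the replicate block and to 0 by library size alone. With no filter on low counts 1 endothelial gene was called higher and 2 mesenchymal surface genes lower. With each library left out in turn, the genes called lower numbered 0 to 1 for fibroblast markers, 1 to 2 for mesenchymal markers, 0 to 1 for the C1q family and 1 to 3 for ligands and partners, and those called higher 0 to 1 for leukocyte markers. The cause of these changes was not tested. All other counts of list genes stayed within 1.5 times the main count. No pairing by replicate number was seen. Same-numbered libraries correlated at -0.01 to 0.04, and 0 of 5 PBS libraries correlated best with the ADC library of their own number. A paired design is not excluded by this. With the replicate number as a block, 1632 genes were called higher and 1520 lower, against 1562 and 1456 in the main fit. PBS levels of TMEM119 and PECAM1 are limited by depth, with 2 to 25 counts per library.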
